A study of Danio rerio with 8 samples.

Results

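The loci described here are 7 groups of transcript models, taken as non-coding. They lie on zebrafish chromosomes 3, 19 and 23 and, with 1 exception, carry the name of a hox gene. They were taken from a deposited catalogue of 1014 zebrafish loci on the Zv9 (danRer7) build by their locus identifiers. Of these loci, 6 hold transcripts whose identifiers begin with linc-hox, and they are the only loci of the catalogue with hox in a transcript identifier. The remaining locus, XLOC_006546, has identifiers that begin with Zv9_ and was included because it lies next to the pair of linc-hoxa3a loci. Together the 7 loci held 17 of the 1425 transcripts and 46 of the 4540 exon records of the catalogue.

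The catalogue belongs to a study that sequenced ribosome footprints, the RNA fragments that ribosomes shield from nuclease, in whole wild-type embryos of the TL/AB strains, raised at the same temperature and untreated apart from cycloheximide in the lysis buffer. The stages ran from embryos of 2-4 cells and 256 cells and the stage labelled 1K cell, through Dome, Shield and Bud, to 28 hours and 5 days after fertilization, with 1 library of pooled embryos per stage and no replicates. Footprint values of these libraries were not analysed here, so nothing below says at which stage a locus is transcribed or bound by ribosomes, and library depth is unknown. Every value is a position or a length in the annotation. It has no replicate error, and no test was run.

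Hox genes encode homeodomain transcription factors that give cells their position along the head-to-tail axis. They lie in clusters, and the order of the genes within a cluster follows the order of the body regions that they pattern, low-numbered genes acting towards the head and high-numbered genes towards the tail. Human HOX clusters are also known for long non-coding RNAs, among them HOTAIR of the HOXC cluster and HOTTIP of the HOXA cluster. Zebrafish carry more clusters than mammals because of a further genome duplication in the fish lineage, and the letter a or b at the end of a gene name tells the resulting copies apart.

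RefSeq's gene table for the GRCz12tu assembly, from which only names and gene order were taken, listed 50 hox genes on 7 chromosomes. Catalogue loci with a hox name were found on 3 of these chromosomes, and each carried the name of an a copy. Chromosome 3, which holds the hoxba cluster, had 1 such locus, named after hoxb8a. Chromosome 19, with the hoxaa cluster, had 2, both named after hoxa3a. Chromosome 23, with the hoxca cluster, had 3, named after hoxc9a, hoxc6a and hoxc1a. On the 4 other chromosomes with hox genes the catalogue listed 43 loci (chromosome 9), 38 (chromosome 11), 41 (chromosome 12) and 51 (chromosome 16), of which 0 had hox in a transcript identifier. Most of the listed hox genes were themselves a copies. Chromosomes 3, 9, 19 and 23, with the a copies, held 11, 7, 8 and 11 of the 50. Chromosomes 11, 12 and 16, with the b copies, held 4, 4 and 5. Nothing is therefore read from the letter in the names of the loci. The names show which gene a locus was called after, not how close it lies. Zv9 positions of the hox genes were not used here, so a locus without a hox name may still lie in one of these clusters.

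**Figure D1:**
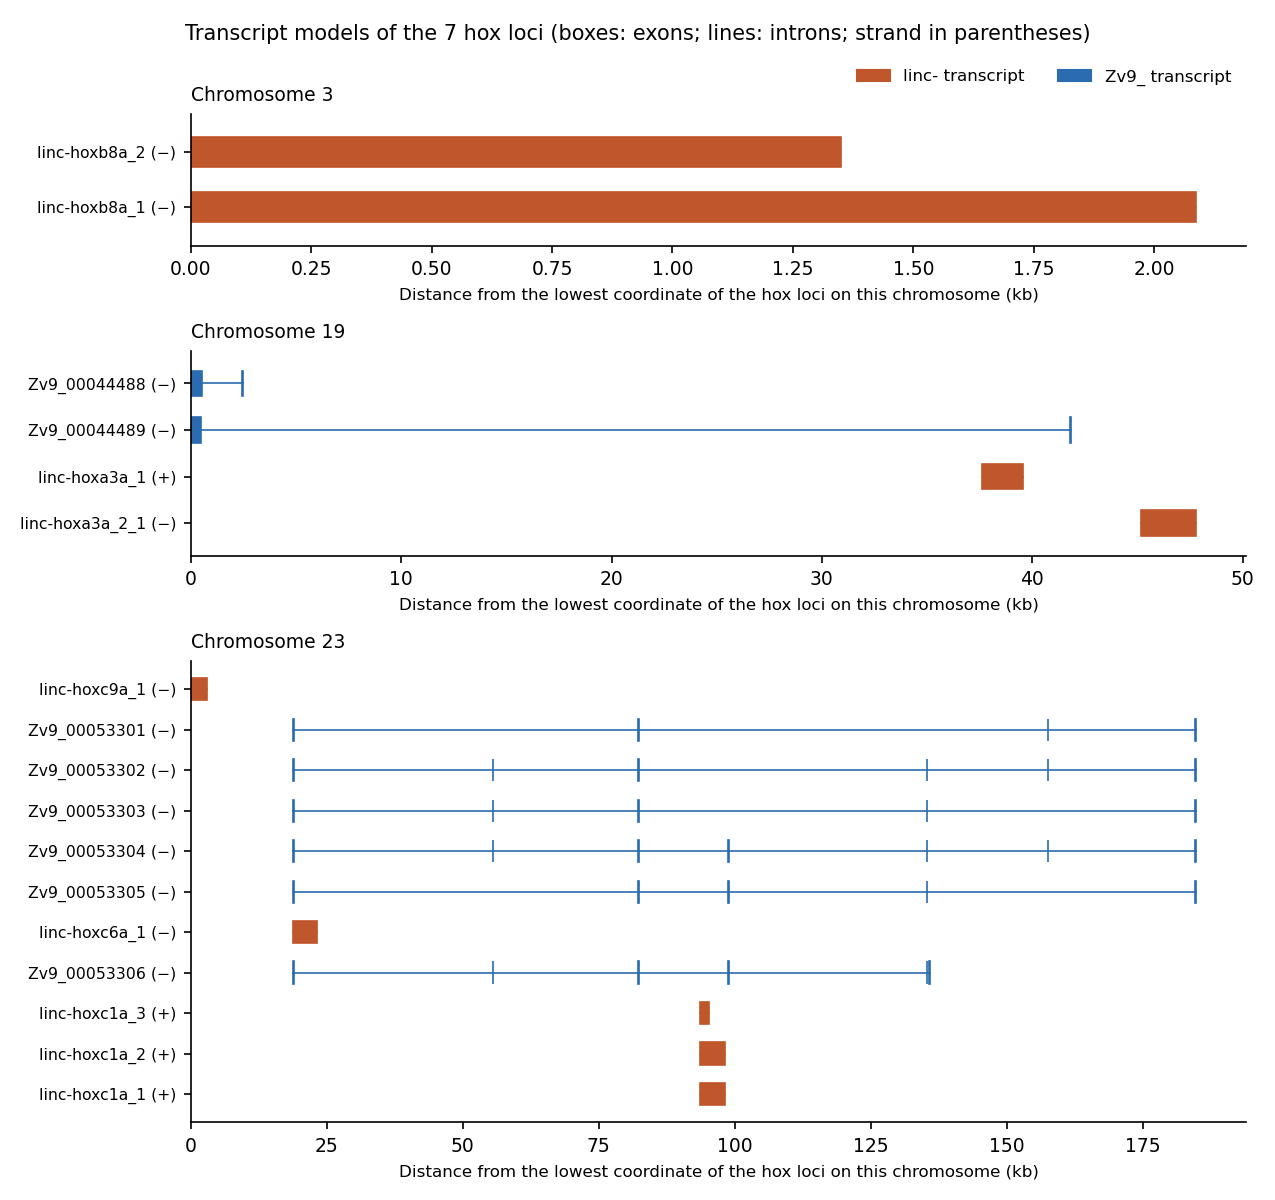
Transcript models of the 7 loci on chromosomes 3, 19 and 23, plotted by distance in kb from the lowest coordinate of the loci on each chromosome, with boxes for exons (drawn at least a line wide), lines for introns, colours for the source of the model and the strand in parentheses. The scales of the panels differ. All 9 linc- transcripts are single boxes, all 8 Zv9_ transcripts have introns, and the plus-strand loci of chromosomes 19 and 23 both lie inside an intron of a minus-strand locus.

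The transcripts divided by source. All 9 linc-hox transcripts consisted of a single exon, whereas 27.5% of the 534 linc- transcripts of the catalogue did. These 9 belong to 6 loci and are not independent cases. Among them, linc-hoxb8a_2, linc-hoxc1a_2 and linc-hoxc1a_3 lay wholly within a longer model of the same locus. All 8 Zv9_ transcripts of these loci were spliced. The share of spliced models among the 864 Zv9_ transcripts of the catalogue was not computed. The 8 are therefore not read as a trait of these loci. The Zv9_ prefix covers both lncRNAs and other developmental transcripts, per the deposited description, and the table marks no transcript as coding or non-coding, so the label non-coding could not be checked for these 8. By locus, 5 of the 7 held single-exon transcripts only, against 10.7% of the catalogue's loci. Introns were therefore present at 2 of the loci, XLOC_006546 and XLOC_009920. A single-exon model holds no splice junction from which its strand could be read. The basis of its strand is not stated in the sources.

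The single-exon hox transcripts had a median length of 2639 nt (n = 9), with a range of 1350 to 4520 nt. Over all 147 single-exon linc- transcripts the median was 2087 nt and the range 481 to 11211 nt. The longest of the hox set, linc-hoxc1a_1, was 31st of these 147 by length and the shortest, linc-hoxb8a_2, was 103rd, so the set lay within the body of the distribution and did not reach its upper end. The spliced Zv9_ transcripts were shorter, with a median of 737 nt (n = 8) and a range of 542 to 935 nt, beside a median of 885 nt over the 864 Zv9_ transcripts of the catalogue. Of these 8, 6 are transcripts of XLOC_009920 and 2 of XLOC_006546, so they are not independent cases.

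The minus strand carried 5 of the 7 loci, against 47.9% of the catalogue, and the plus strand carried 2, XLOC_006210 (linc-hoxa3a_1) and XLOC_009640 (linc-hoxc1a). Each of these 2 plus-strand loci lay wholly inside an intron of a minus-strand locus that is also among the 7. Such a position was rare in the catalogue, where 6 loci, or 0.592%, lay wholly inside an intron of a locus on the other strand. The 7 loci described here supplied 2 of those 6. The host on chromosome 19, XLOC_006546, is among the 7 because of its position, so that case was partly fixed by the choice. The case on chromosome 23 was the only one between loci with a hox name. Its host, XLOC_009920, has that name from 1 transcript, linc-hoxc6a_1, which has no intron. The introns that hold the nested locus belong to Zv9_ transcripts of the host. The 7 loci were chosen with their arrangement known, and this share is a description. Both nested loci hold single-exon models only, so their place on the opposite strand rests on annotated strands whose basis is not stated.

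The chromosome 3 locus stood alone. XLOC_011434, from 23977442 to 23979528 on the minus strand, held 2 transcripts named after hoxb8a, a gene of the trunk region. Its nearest neighbour in the catalogue lay 446158 bases away. Both hoxb8a transcripts ended at 23977442 and differed in where they began. The longer, linc-hoxb8a_1, measured 2087 nt, and the shorter, linc-hoxb8a_2, measured 1350 nt and began 737 nt further downstream. The shorter model lay wholly within the longer. In the RefSeq table hoxb8a stood between hoxb9a and hoxb7a, and no catalogue locus carried the name of either.

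The 3 loci of chromosome 19 overlapped or followed each other closely within 47790 bases from 19200741 to 19248530. No other locus of the catalogue lay near them, the closest being 777130 bases away. In order of increasing coordinate they were XLOC_006546 on the minus strand, XLOC_006210 on the plus strand and XLOC_006547 on the minus strand. The last 2 are named after hoxa3a, a gene whose mouse counterpart patterns the neck and pharyngeal region.

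XLOC_006546, the only one of the 7 loci without a hox name, spanned 41838 bases but held only 649 bases of merged exon sequence, or 1.55% of the span. Its 2 transcripts, Zv9_00044488 and Zv9_00044489, shared the 3′ end at 19200741 and had 2 exons each. Their first exons were short and far apart. That of Zv9_00044488 was 54 nt long and began at 19203236, whereas that of Zv9_00044489 was 53 nt long and began at 19242578, 39342 bases further upstream. The terminal exons measured 542 and 489 nt, because the splice site at their upstream edge differed by 53 nt. The transcripts shared no intron. The intron of Zv9_00044488 was 1900 bases long and that of Zv9_00044489 41296 bases, 136th in length among the 2388 distinct introns of the catalogue.

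The single exon of XLOC_006210, linc-hoxa3a_1, ran from 19238344 to 19240283 on the plus strand and measured 1940 nt. It lay inside the long intron of Zv9_00044489 and took up 4.7% of it. Its 3′ end was 2294 bases short of the start of Zv9_00044489, so by its annotated strand linc-hoxa3a_1 ran towards the start of the transcript that contains it. The 2 loci shared 0 exon bases. The other transcript of the host, Zv9_00044488, began at 19203236, past the nested locus in the host's direction of transcription, and did not contain it.

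XLOC_006547, linc-hoxa3a_2_1, lay beyond the host locus from 19245892 to 19248530 on the minus strand and measured 2639 nt. Its 3′ end was separated from the start of Zv9_00044489 by 3313 bases, both on the minus strand, so the 2 loci followed each other in the same direction. From linc-hoxa3a_1, on the opposite strand, it was separated by 5608 bases. The 2 loci that share the hoxa3a name therefore lay on opposite strands, with the start of Zv9_00044489 between them.

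On chromosome 23 the loci extended over 184791 bases from 36143891 to 36328681. Ordered by their lowest coordinate, they carried the names hoxc9a, hoxc6a and hoxc1a. The genes themselves stood in the same order by start in the RefSeq table, with hoxc8a between hoxc9a and hoxc6a, and hoxc5a and hoxc4a between hoxc6a and hoxc1a. The loci carry the names of these genes, so the shared order may follow from the naming and is a description only. XLOC_009919, linc-hoxc9a_1, ran from 36143891 to 36146912 on the minus strand as a single exon of 3022 nt. It lay 15765 bases downstream of the end of XLOC_009920, in the same direction of transcription. A locus without a hox name, XLOC_009918, followed 4112 bases further on, also on the minus strand, with 1 transcript of 2 exons and 3049 nt. It was the only other locus of the catalogue within 100 kb of any of the 7.

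XLOC_009920 was the largest of the group and the only one described by both sources, which was the case at 2.17% of catalogue loci. It ran from 36162678 to 36328681 on the minus strand and spanned 166004 bases, 20th of the 1014 loci. It listed 7 transcripts, and 2 loci of the catalogue listed more. Merged exons covered 5235 bases, or 3.15% of the span. Of its transcripts, 6 were spliced Zv9_ models of 552 to 935 nt, and the seventh was linc-hoxc6a_1, a single exon of 4336 nt named after hoxc6a, a gene of the anterior trunk.

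The spliced transcripts drew on 8 exon positions, numbered here in the direction of transcription. Exon 1 (159 nt) was the first exon of 5 transcripts, Zv9_00053301 to Zv9_00053305, which all began at 36328681 and all ended at 36162678. They had 3 exons in common, exon 1, exon 6 (147 nt) and exon 8 (193 nt). Between them, exon 2 (53 nt), exon 4 (93 nt), exon 5 (149 nt) and exon 7 (141 nt) were present in some of the 5 and absent from others. The 5 transcripts therefore had 5 different combinations of these 4 optional exons, out of 16 that are possible.

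**Figure D2:**
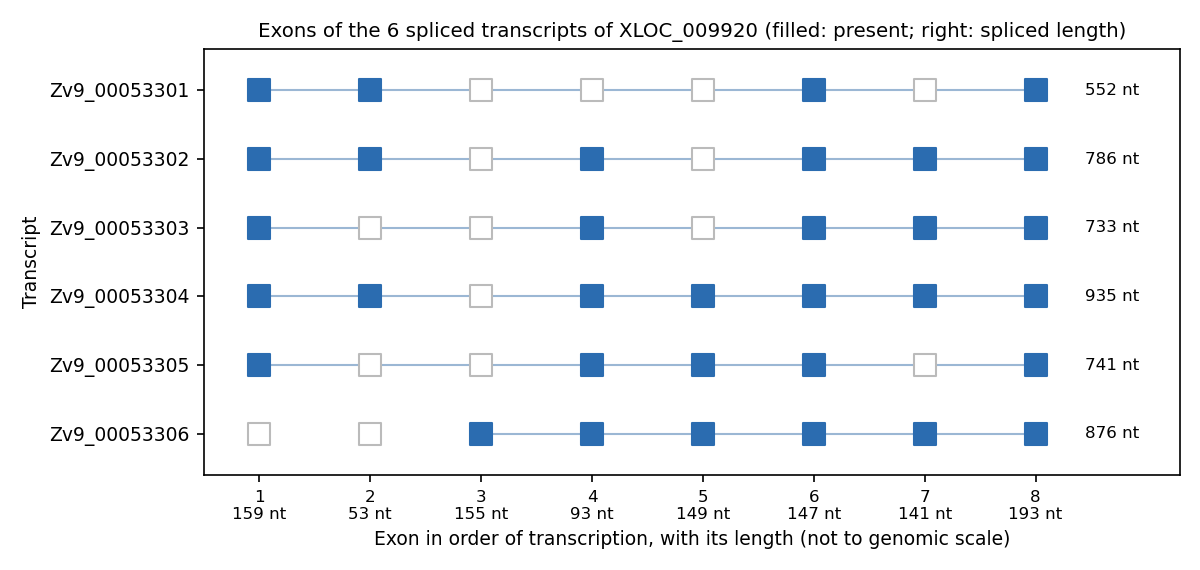
Exon content of the 6 spliced transcripts of XLOC_009920, with exons from 5′ to 3′ on the horizontal axis (length below each, not to genomic scale) and transcripts on the vertical axis. Filled squares mark exons present, and the spliced length stands at the right. Exons 6 and 8 are filled in all 6 transcripts, exon 3 in Zv9_00053306 alone, whose exon 8 is 191 nt long.

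The fullest combination was that of Zv9_00053304, with 7 exons and 935 nt. Zv9_00053302 lacked exon 5 of that set and measured 786 nt, and Zv9_00053303 lacked exons 2 and 5 and measured 733 nt. Zv9_00053305 lacked exons 2 and 7 and measured 741 nt. The last 2 differed by the exchange of exon 7 for exon 5, which changed the length by 8 nt. The shortest, Zv9_00053301, lacked exons 4, 5 and 7 and measured 552 nt in 4 exons. Exon 4 was thus missing from 1 of the 5 transcripts, and exons 5 and 2 occurred together in Zv9_00053304 alone.

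The sixth spliced transcript, Zv9_00053306, began elsewhere. Its first exon, exon 3 (155 nt), began at 36279821, which is 48860 bases downstream of the start used by the other 5, and was joined to exon 4 across an intron of 440 bases. From exon 4 onwards it contained every exon, as Zv9_00053304 did, and those 2 transcripts shared 4 introns. Its end, at 36162680, differed by 2 nt from that of the other 5.

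The linc-hoxc6a_1 model shared that end to the base. It ended at 36162680, as Zv9_00053306 did, and covered 191 nt of exon 8. It then continued upstream without a splice junction through 4145 bases of the adjoining intron and began at 36167015, 112806 bases downstream of the nearest start of a spliced transcript. Among the 22 catalogue loci with linc- and Zv9_ models, XLOC_009920 was the only one at which transcripts of the 2 sources ended at the same base (1 of 22, 4.55%). The smallest distance between 3′ ends of the 2 sources had a median of 186 nt over these loci. It was at most 10 nt at 3 of the 22. Single-exon linc- models beside spliced Zv9_ models were not unusual among them, at 12 of the 22, or 54.5%. Whether the unspliced model is a transcript of its own or a part of a longer RNA was not tested.

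The introns of XLOC_009920 were long. Its 6 spliced transcripts used 11 distinct introns with a median of 36261 bases, from 440 bases to 75241. Over the catalogue the median of 2388 distinct introns was 1956.5 bases. Counting the 2 introns of XLOC_006546 as well, 11 of 13 introns of the hox loci exceeded 10 kb, against 18.8% of those in the catalogue. These introns share splice sites and are not independent of each other. The longest, in Zv9_00053301, ran from 36226242 to 36301482, skipping exons 4 and 5 and spanning exon 3, the first exon of Zv9_00053306. It was 68th in length in the catalogue. Of the 13 introns, 9 were used by more than 1 transcript, all of them in XLOC_009920. The catalogue share of such introns was not computed, so this count is a description only. The introns that join exon 7 to its neighbours, 36496 and 26587 bases long, were each used by 4 transcripts.

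XLOC_009640 lay within these introns. Its 3 single-exon transcripts, named after hoxc1a, a gene of the head end of the cluster, all began at 36237585 on the plus strand. They ended at 36239099, 36242028 and 36242104 and measured 1515 nt (linc-hoxc1a_3), 4444 nt (linc-hoxc1a_2) and 4520 nt (linc-hoxc1a_1). Each shorter model lay wholly within the next longer one. The 2 longer ends were 76 nt apart, and the shortest transcript stopped 2929 nt before the first of them.

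All 6 spliced transcripts of XLOC_009920 carried XLOC_009640 within an intron, and linc-hoxc6a_1, which has none, did not. Exon 6 of the host bounded the nested locus on the downstream side, 11343 bases away, in every case. On the upstream side the boundary depended on splicing. Where exon 5 was used, in 3 transcripts, the intron was 16482 bases long and the nested locus ended 619 bases from exon 5, taking up 27.4% of the intron. Where exon 5 was skipped and exon 4 used, in 2 transcripts, the intron was 52892 bases long and the distance was 37029 bases. In Zv9_00053301, which skips both, the distance was 59378 bases. The upstream distances and the 27.4% are those of the longest nested transcript, linc-hoxc1a_1. The 2 shorter nested transcripts ended further from the upstream exon. The 2 loci shared 0 exon bases, as did the nested pair on chromosome 19.

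The alternative transcripts of the 4 loci that listed more than 1 (the catalogue share is 24.8%) differed at different ends. At XLOC_011434 and XLOC_006546 they shared the 3′ end and differed at the start, an arrangement found at 11.2% of the 251 catalogue loci with more than 1 transcript. At XLOC_009640 they shared the start and differed at the 3′ end, as at 21.1% of those loci. XLOC_009920 had 3 starts and 2 ends that lay 2 nt apart, and 58.6% of those loci likewise had several of both. None of the 4 had a single start and a single end, as 9.16% of those loci did. By locus, 3 of the 7 had more than 1 start, against 17.3% of the catalogue, and 2 had more than 1 end, against 19.7%. In all, the 17 transcripts had 11 distinct starts and 10 distinct ends. The table's own start identifiers also numbered 11.

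**Figure D3:**
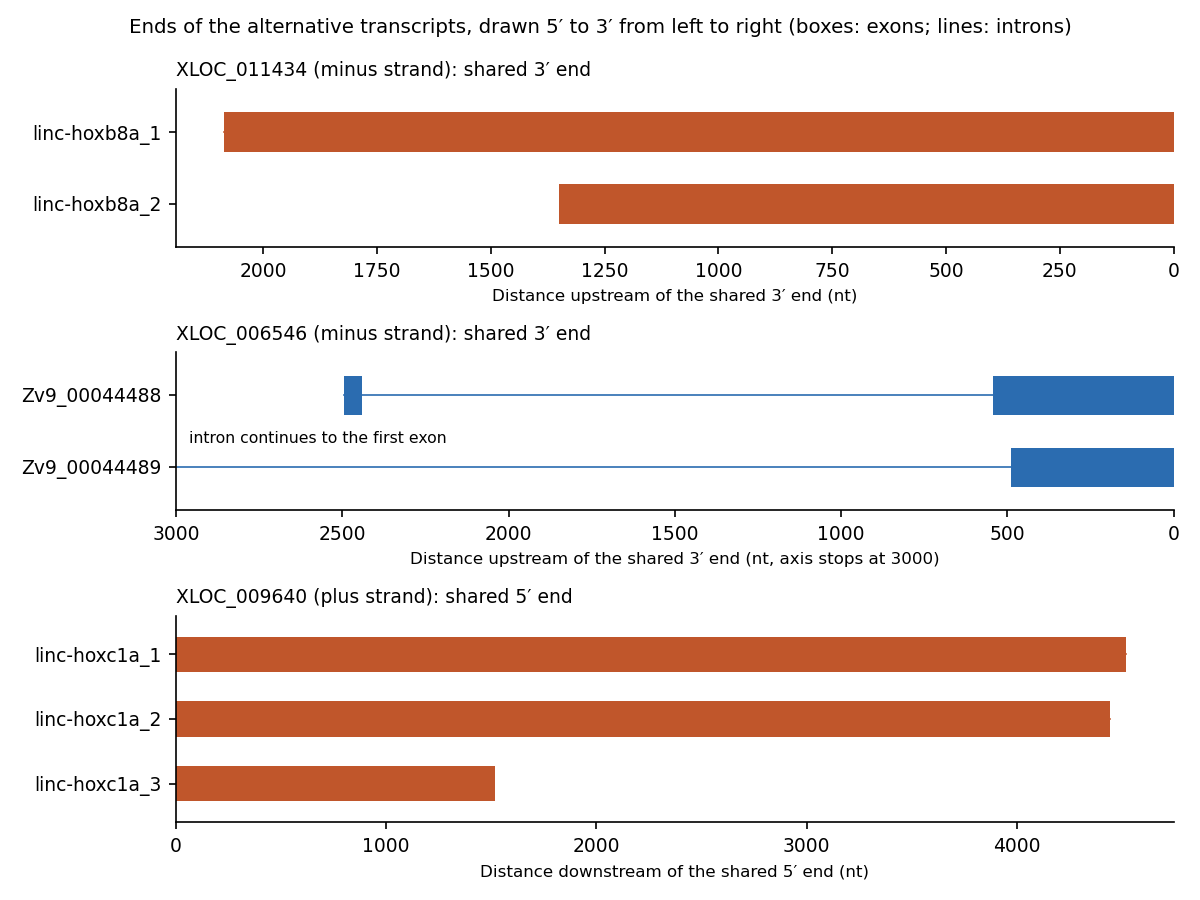
Alternative transcripts of XLOC_011434, XLOC_006546 and XLOC_009640, drawn 5′ to 3′ from left to right, with the distance from the shared end in nt on the horizontal axis, boxes for exons and lines for introns. The hoxb8a models and the Zv9_ models meet at the 3′ end on the right, with starts 737 and 39342 nt apart, and the hoxc1a models meet at the 5′ end on the left. The axis of the middle panel stops before the first exon of Zv9_00044489.

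Several of the loci lay close together. Of the 6 pairs of loci that share a chromosome, 2 overlapped in span, both times by nesting on opposite strands, and 4 overlapped or lay within 10 kb of each other. Of the 7 loci, 4 overlapped another locus, against 4.64% of the catalogue, and 6 had another locus within 10 kb or overlapping, against 9.27%. For linc-hoxc9a_1 that neighbour was XLOC_009918, which carries no hox name. The exception was XLOC_011434 on chromosome 3. XLOC_006546 was included because it lies next to the hoxa3a loci, so its closeness was fixed by the choice and nothing is read from these counts about it. With that locus left out, the 6 hox-named loci formed 4 pairs on the same chromosome, of which 1 overlapped and 2 overlapped or lay within 10 kb. Of the 6, 2 then overlapped another locus and 5 had one within 10 kb or overlapping. The remaining overlap comes from the Zv9_ transcripts of XLOC_009920. The transcript that gives that locus its hox name, linc-hoxc6a_1, overlapped none of the other loci. Nested and neighbouring loci enter such counts together, so these shares do not describe independent cases.

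**Figure D4:**
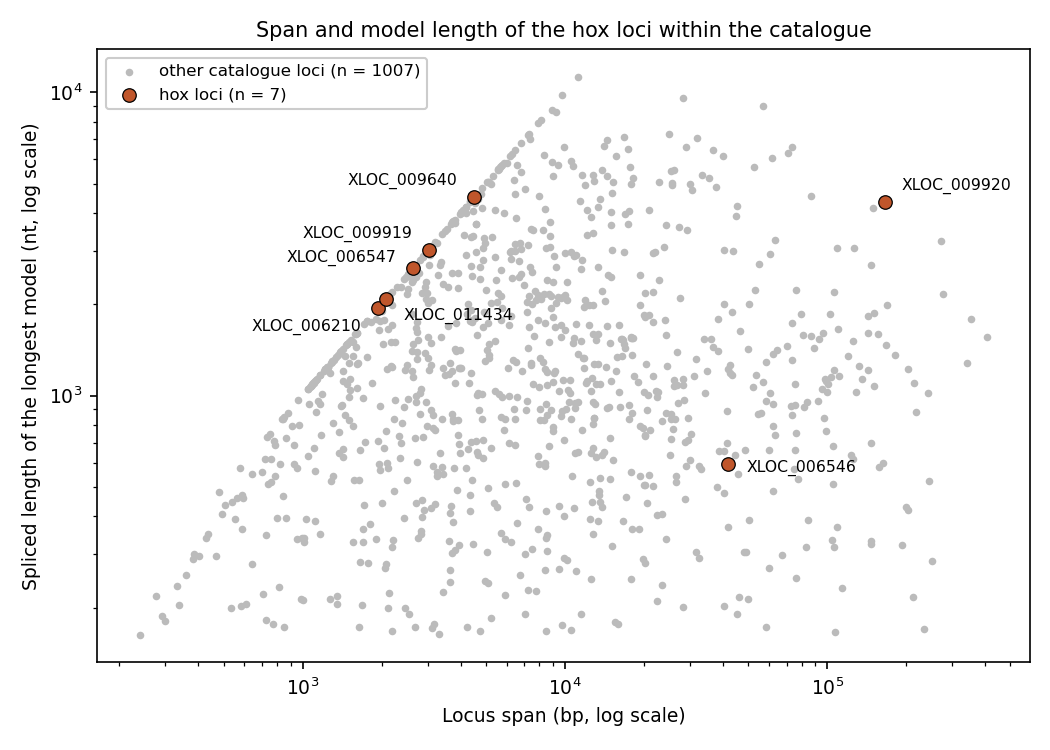
Locus span in bp against the spliced length of the longest model in nt, both on log scales, for the 7 hox loci and the other 1007 loci of the catalogue. The 5 hox loci with single-exon transcripts only lie on the edge where length equals span, between 1940 and 4520, and XLOC_006546 and XLOC_009920, which span 41838 and 166004 bases, lie to the right.

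Taking the longest model for each locus, the 7 loci had a median spliced length of 2639 nt, beside 1163 nt over the 1014 loci of the catalogue, and lengths ran from 596 nt (XLOC_006546) to 4520 nt (XLOC_009640). The median span was 3022 bases, beside 6800, and spans ran from 1940 to 166004 bases. The longest model had 1 exon at 6 of the 7 loci, against 12.4% of the catalogue. XLOC_009920 was among these 6 because its longest model was the unspliced linc-hoxc6a_1, although 6 of its 7 transcripts were spliced. The medians of length thus set mostly unspliced models beside mostly spliced ones. Over single-exon linc- transcripts alone, the median was 2639 nt for the hox loci and 2087 nt for the catalogue. Counting every transcript gave a smaller median length, 1350 nt beside 1105 nt, with the 8 short spliced Zv9_ models then counted one by one.

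Vertebrate hox clusters also hold microRNA genes of the mir10 and mir196 families, which are known to act on hox transcripts. The RefSeq table placed 9 of them among the hox genes, 5 on chromosomes 3, 19 and 23. None of the 9 was listed as a transcript in the catalogue, and the 7 loci held 0 RefSeq models. The rule by which RefSeq models entered the catalogue is not stated, so this says nothing of precursors within the introns.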

How the data were processed

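Ribosome footprints of 8 stages were sequenced, and the submitters' processing notes name bedtools, Bowtie2 and TopHat2 and the Zv9 (danRer7) build. No version, setting or order is stated. The deposited table analysed here gives each exon's start and end position, both 1-based and inclusive, with strand, locus and transcript identifiers, and belongs to no single library. Per the authors' deposited description it combines earlier lncRNA annotations (linc- and Zv9 prefixes) with other developmental and RefSeq transcripts of the same loci. How transcripts were grouped into loci is not stated. No values per sample were used, and 0 columns of them were passed over.

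From the exons, introns, spliced lengths, spans, starts and ends were derived by strand, and spans were compared with a minimum overlap of 1 base. A locus was called nested when its whole span lay in 1 intron of another locus. Each locus was represented by its longest model, the transcript with the greatest total exon length, spliced or not. Every one of the 7 loci is named, and other loci only where they lie within 100 kb of one. The 7 loci and the properties compared were chosen with earlier results of these data known, so shares of the catalogue are given as descriptions and no test was run. Names came from the identifiers, and gene order from a RefSeq table of GRCz12tu, which held all 5 hox names used. No sequence is shown, because no genome of the Zv9 build was used here. The mouse table was not used here. The interval comparisons were tested on simulated loci with known nesting and spacing, 200 sets, and recovered all of 5 relations. In every set the inner locus lay wholly inside the intron, on the opposite strand. The sets therefore tested spacing and lengths, but not whether a locus only partly inside an intron is told apart. Python 3.11.15, numpy 2.4.6 and matplotlib 3.10.9 were used.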

Additional observations from a re-analysis of the deposited data

How the results depend on the processing

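Of 20 alternatives over 11 values, 10 left a value the same or a count within 1.5 times of it. Some of the 10 could not have moved, such as a minimum of 50 bases for overlaps of 1940 and 4520 bases. Leaving out the widest transcript of XLOC_009920 could not change its span either, because other transcripts have the same ends. The tally is therefore no measure of stability. Nesting and introns depended on which transcripts were counted. With introns of the longest model only, 0 loci were nested in place of 2. That model is unspliced in XLOC_009920. In XLOC_006546 it is Zv9_00044488, which spans 2496 bases and begins past the nested locus. By exons alone, 0 pairs overlapped. Leaving out XLOC_006546, an alternative chosen after seeing the data, left 1 overlapping pair in place of 2, 1 nested locus in place of 2 and 2 pairs within 10 kb in place of 4. The median intron, 1900 bases for the single locus with a spliced longest model (catalogue 2473.5), was 36261 bases over all distinct introns. The median spliced length was 1350 nt with every transcript counted, and the median span was 2639 bases for the longest models. Without the locus that has Zv9_ models only, both medians were 2830.5. The table has no replicates, depth or expression values, and its limits are those of the annotations it combines.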

Other observations

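Nesting on the opposite strand placed the nested locus near the upstream edge of a host intron on both chromosomes. The distance to the upstream exon was 2242 bases on chromosome 19 and 619 bases on chromosome 23, where exon 5 of the host was used, against 37114 and 11343 bases to the downstream exon. The 619 bases are counted from the end of the longest nested transcript, linc-hoxc1a_1. In the 3 host transcripts of chromosome 23 that skip exon 5 the nested locus lay nearer to the downstream exon.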
